A study of Saccharomyces cerevisiae with 12 samples.

Results

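Acetate and maltose limited chemostat cultures of Saccharomyces cerevisiae were compared across all measured transcripts, which takes 6 of the 12 arrays of the study. The 3 acetate cultures and the 3 maltose cultures were chosen by their labelled carbon source, 1 array per culture. The strain was CEN.PK113-7D, a wild-type haploid of mating type MATa, in every culture. In both groups the carbon source was the growth-limiting nutrient, supplied at 256 mmol carbon per liter with the other nutrients in excess, and cultures were aerated at 30 °C and pH 5.0. The dilution rate was set to 0.10 per hour, so that growth rate was the same. The culture labels differ only in the carbon source. A set of 3 ethanol cultures grown the same way and 3 glucose cultures from older records with a protocol of their own entered the same fit, and they serve below as a second pair of a non-sugar and a sugar. All results come from 1 laboratory strain, and p-values rest on how far cultures of the same source differ from each other.

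Acetate enters metabolism as acetyl-CoA, so every sugar phosphate that a cell needs has to be built from it. The glyoxylate cycle joins acetyl units into 4-carbon acids without losing carbon, and gluconeogenesis then runs from oxaloacetate to glucose 6-phosphate. Maltose is a disaccharide of glucose that is carried into the cell by proton symporters, is cut by maltase and is then broken down by glycolysis.

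The values are linear probe set signals, rescaled to a common trimmed mean, raised to a floor of 12 and set on a log2 scale. A log2 change is acetate minus maltose, a call is an adjusted p under 0.05 by limma, and fold changes of dim genes are understated by the floor. Before any result, maltose array 2 has to be set apart. Its median signal was 22.8, while the acetate arrays had medians of 48.5, 45.6 and 47.5 and the other maltose arrays, numbers 1 and 3, had 41.8 and 47.8. It had 5658 probe sets above 12, against 6812 to 7062 on the acetate arrays and 6578 and 6855 on the other maltose arrays. The ratio of 3′ to 5′ actin signal, a sign of how complete the labelled RNA was, also moved with the groups. It was 2.78, 10.2 and 13.1 on acetate arrays 1, 2 and 3, against 2.95, 2.96 and 1.82 on the maltose arrays. By actin, acetate array 1 was thus close to the maltose arrays, and acetate arrays 2 and 3 were far above them. The same ratio for a second control gene, YER148W, was 4.87, 7.33 and 9.88 on acetate arrays 1, 2 and 3. On maltose arrays 1, 2 and 3 it was 2.39, 5.88 and 3.80, so there maltose array 2 was above acetate array 1. Maltose arrays 1 and 2 carry another code letter (M) than the other 4 arrays (P). Below, signals on maltose array 2 are given apart, and the counts of the main groups are repeated without single arrays and with acetate array 1 as the only acetate array.

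The 5 genes set as markers of these cultures were on the side of their label. They were set with earlier results of these data known, so this describes the cultures and is no test of them. PCK1 and CIT2, enzymes of gluconeogenesis and of the glyoxylate cycle, and TPO2, a polyamine exporter, were higher on every acetate array than on any maltose array. MAL11, an alpha-glucoside permease also known as AGT1, and IMA5, an isomaltase, were higher on every maltose array than on any acetate array. IMA5 passed the filter on low values only through the maltose arrays, where it is high.

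Of 9275 probe sets that are no array control, 6867 were above 12 on at least 3 of the 6 arrays and were tested, covering 5219 genes with a probe set of their own. Of these, 816 were called (11.9% of those tested). The calls were 569 higher in acetate cultures (8.29%) and 247 lower (3.6%), and 559 of the 816 changed at least 2-fold (8.14%). Of the higher calls 32 had all maltose arrays at the floor, and of the lower calls 8 had all acetate arrays there. Those passed the filter only through the group where they are high. Over all probe sets tested, 81 had all maltose arrays and 13 all acetate arrays at the floor. The median log2 change over everything tested was 0.25 and not 0, so changes are read against that shift. Quantile normalization, which forces the arrays to 1 distribution, moved the median to 0.04 and gave 434 higher and 370 lower calls, which turns a 69.7% share of higher calls into 54%. The groups did not overlap for 2008 probe sets (29.2%), with acetate above in 1519 (22.1%) and below in 489 (7.12%). Each array is of a whole culture, so fewer cells that express a gene and less RNA per cell cannot be told apart.

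Maltose array 2 took part unevenly in these calls. It was the lowest of the maltose arrays for 66.7% of all probe sets tested, for 74.9% of the higher calls and for 24.3% of the lower calls. Without it, 476 probe sets were called, 280 higher and 196 lower, at a median of 0.09, and 411 of them were among the 816. Leaving out acetate array 2 or 3 left 272 or 255 calls, while leaving out maltose array 3 gave 1408. With acetate array 1 as the only acetate array 63 probe sets were called, 30 higher and 33 lower, and all 63 were among the 816. With the mean of the log2 3′ to 5′ ratios of actin and YER148W as a covariate 286 were called, of which 256 were among the 816. The code letter as a block gave 65 higher and 117 lower calls, and the P arrays alone 86 and 107, so that under both the majority of calls was lower in acetate cultures, at a median change of 0.05. The part of array quality in single calls was otherwise not tested. A gene described below as higher or lower kept its call in acetate against maltose when any 1 of the 6 arrays was left out, unless its paragraph says otherwise, while genes that are only counted need not have done so. In families of near-identical genes, such as the TDH, ENO, HXT and MAL genes, 1 gene's probes can take up signal of another.

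**Figure D1:**
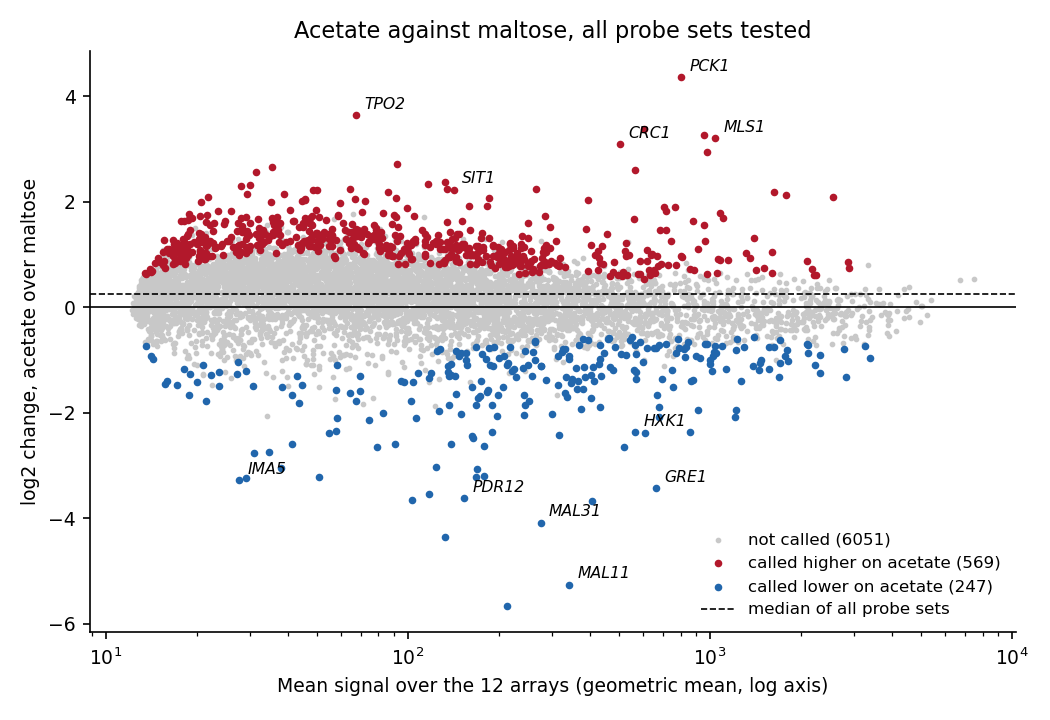
Log2 change, acetate minus maltose, against the geometric mean signal over the 12 arrays (log axis) for the 6867 probe sets tested. Red points are the 569 called higher in acetate cultures, blue points the 247 called lower, grey points the rest, and the dashed line is the median of 0.25.

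Gluconeogenesis and the glyoxylate cycle rose together in acetate cultures. Of 8 genes tested, 6 were called higher, beside 8.29% of all probe sets, and the other members were not called. The median log2 change was 2.56, against 0.25 over everything. PCK1, phosphoenolpyruvate carboxykinase, which starts gluconeogenesis from oxaloacetate, had signals of 2870, 3985 and 3569 in acetate cultures, against 194 and 206 on maltose arrays 1 and 3 and 118 on maltose array 2. The gap is far wider than the spread on either side, a 20.5-fold difference (log2 4.36 ± 0.23 SE, limma adjusted p = 1.99e-09), and it was 4.11 without maltose array 2. FBP1, fructose-1,6-bisphosphatase, the other step that glycolysis cannot reverse, read 1790, 1960 and 1548 in acetate cultures, against 214 and 191 on maltose arrays 1 and 3 and 119 on array 2. It rose 10.4-fold (log2 3.38 ± 0.23, limma adjusted p = 6.94e-08) and the groups did not overlap.

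MLS1, malate synthase, read 3129, 3003 and 2990 in acetate cultures, against 350.0 and 377 on maltose arrays 1 and 3 and 272 on array 2. ICL1, isocitrate lyase, which makes the glyoxylate that MLS1 uses, read 3401, 3898 and 4296 in acetate cultures, against 893 and 753 on maltose arrays 1 and 3 and 1015 on array 2. Both enzymes were clear of overlap, MLS1 by 9.22-fold and ICL1 by 4.37-fold, so these partners of 1 pathway differed in size of change, and in ICL1 maltose array 2 was the highest maltose array. CIT2, the peroxisomal citrate synthase, read 2137, 2636 and 2670 in acetate cultures, against 481 and 393 on maltose arrays 1 and 3 and 176 on array 2. Its change of log2 2.94 ± 0.33 (limma adjusted p = 2.22e-05) was 2.51 without maltose array 2. MDH2, the cytosolic malate dehydrogenase, rose 4.55-fold, with 3646, 3243 and 3370 in acetate cultures, against 719 and 730 on maltose arrays 1 and 3 and 805 on array 2. The members not called were MDH3, the peroxisomal malate dehydrogenase, at log2 0.11, and DAL7, a malate synthase of allantoin breakdown, at 0.51. The 6 calls stood without any single array and with acetate array 1 alone.

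**Figure D2:**
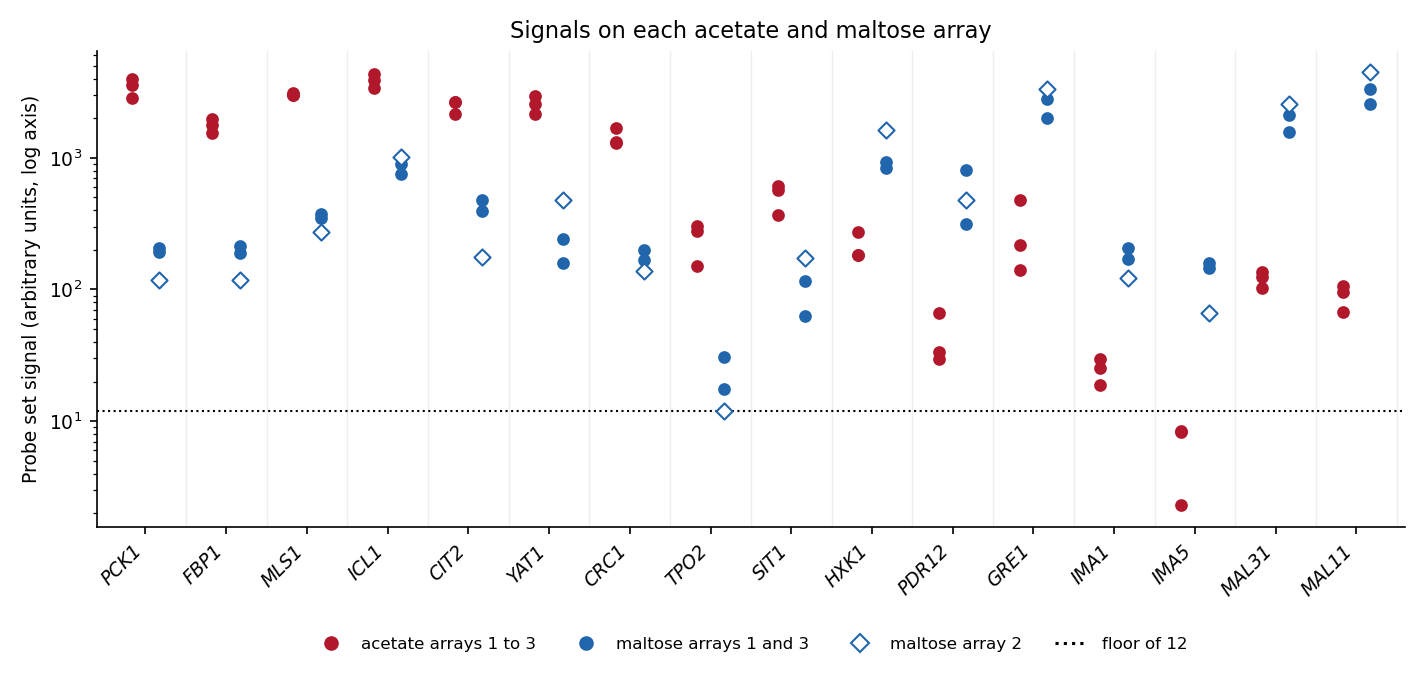
Signal on each acetate array (red circles) and each maltose array (blue circles, with maltose array 2 as an open diamond) for 16 genes, on a log axis, with the floor of 12 dotted. PCK1 on the left has acetate signals of 2870 to 3985, all above its maltose signals, and MAL11 on the right has acetate signals of 67.0 to 106, all below its maltose signals of 2583 to 4455.

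All 5 tested genes of the carnitine shuttle, which carries acetyl units between compartments, were called higher. Their median was 1.78, and 8.29% of all probe sets were called higher. YAT1, a carnitine acetyltransferase of the mitochondrial surface, read 2145, 2574 and 2971 in acetate cultures, against 243 and 160.0 on maltose arrays 1 and 3 and 479 on array 2. Here maltose array 2 was the highest maltose array, and the log2 change of 3.26 ± 0.31 (limma adjusted p = 4.95e-06) was 3.69 without it. CRC1, the carrier of acetylcarnitine across the inner mitochondrial membrane, read 1677, 1298 and 1329 in acetate cultures, against 168 and 199 on maltose arrays 1 and 3 and 139 on array 2. That is an 8.54-fold rise (limma adjusted p = 1.06e-07). YAT2, a second carnitine acetyltransferase, rose by log2 1.78 ± 0.21, and CAT2, the enzyme found in mitochondria and peroxisomes, by 1.63 ± 0.24. AGP2, a plasma membrane protein needed for carnitine uptake, was dim, at 28.8 ± 10.9 in acetate cultures (SD, n = 3), against 11.2 and 12.5 on maltose arrays 1 and 3 and 10.9 on array 2 (log2 1.18 ± 0.26). With acetate array 1 alone AGP2 was not tested, and 3 of the other 4 were called.

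Of 10 mitochondrial carriers of carboxylic acids, 2 rose and 1 fell, beside 8.29% and 3.6% of all probe sets. The median of 0.16 is close to the shift of all probe sets. SFC1, which exchanges succinate for fumarate and so links the glyoxylate cycle to the mitochondrion, read 1201, 1103 and 866 in acetate cultures, against 461 and 404 on maltose arrays 1 and 3 and 299 on array 2. It was 2.74-fold higher (log2 1.46 ± 0.19, limma adjusted p = 0.000137) with no overlap. ODC1, an oxodicarboxylate carrier, was at log2 1.08 and lost its call without acetate array 2 or maltose array 2 (adjusted p 0.0576 to 0.0727). DIC1, the dicarboxylate carrier, was at −0.88 and lost its call without acetate array 2, acetate array 3 or maltose array 2 (adjusted p 0.0524 to 0.0852).

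In the TCA cycle 8 of 15 genes rose, beside 8.29% of all probe sets, and the other 7 were not called. The median was 0.61. The changes were smaller than in the glyoxylate cycle. CIT3, a mitochondrial citrate synthase, had 793, 745 and 620 in acetate cultures, against 353 and 240 on maltose arrays 1 and 3 and 243 on array 2, a log2 change of 1.38 ± 0.21 (limma adjusted p = 0.000411). IDH1, a subunit of the NAD-dependent isocitrate dehydrogenase, read 1279, 1126 and 1275 in acetate cultures, against 581 and 477 on maltose arrays 1 and 3 and 492 on array 2. Its partner subunit IDH2 moved alike, at 1.05 ± 0.19 beside 1.25 ± 0.17 for IDH1. SDH1, the flavoprotein of succinate dehydrogenase, rose by 1.11 ± 0.19, FUM1, fumarase, by 0.88 ± 0.17 and ACO1, aconitase, by 0.75 ± 0.16. ACO1 lost its call without acetate array 2 (adjusted p = 0.0515), the succinate dehydrogenase subunit SDH3 (0.73) without any 1 acetate array (0.0622 to 0.0925), and its partner SDH4 (0.61) without acetate array 2, acetate array 3 or maltose array 1 (0.0928 to 0.178). The count of 8 was 5 without acetate array 2 and 2 with acetate array 1 alone, where the median was 0.72.

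Among 38 genes of the respiratory chain and ATP synthase, 6 rose and 1 fell, beside 8.29% and 3.6% of all probe sets. The median of 0.27 was near that of all probe sets. NDE2, an NADH dehydrogenase facing the cytosol side of the inner membrane, read 942, 923 and 1067 in acetate cultures, against 295 and 286 on maltose arrays 1 and 3 and 344 on array 2 (log2 1.67 ± 0.22, limma adjusted p = 0.000117). COX9, a subunit of cytochrome c oxidase, rose by 0.90 ± 0.17. CYC7, the form of cytochrome c made at low oxygen, went the other way, at 11.9, 10.6 and 6.6 in acetate cultures, against 99.1 and 96.9 on maltose arrays 1 and 3 and 53.5 on array 2. Since its acetate arrays were all at the floor it was at least 6.67-fold lower. It passed the filter on low values only through its 3 maltose arrays, where it is high, so no p is given, and with any 1 of them left out it was not tested. The 6 calls became 3 without acetate array 2 or acetate array 3.

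Genes that make acetyl-CoA from ethanol and acetate did not move as a group, with 3 of 15 higher, 2 lower and a median of −0.01. Of all probe sets 8.29% were called higher and 3.6% lower. ACS1, the acetyl-CoA synthetase used on non-fermentable carbon, was already high in maltose cultures, at 3681, 4023 and 3892 in acetate cultures, against 2144 and 2105 on maltose arrays 1 and 3 and 2687 on array 2. Its change of 0.75 ± 0.20 (limma adjusted p = 0.0228) was not called without acetate array 2, acetate array 3 or maltose array 1 (adjusted p 0.0614 to 0.101). ACH1, a CoA transferase that acts on acetate, rose by 1.69 ± 0.23, with 1999, 1781 and 2042 in acetate cultures, against 441 and 757 on maltose arrays 1 and 3 and 647 on array 2. ADH3, the mitochondrial alcohol dehydrogenase, was at 0.96 and lost its call without acetate array 2 or 3 (adjusted p 0.0752 to 0.0854). ADH1, the main fermentative alcohol dehydrogenase, fell, with 1379, 1692 and 1418 in acetate cultures, against 3662 and 2393 on maltose arrays 1 and 3 and 3746 on array 2 (log2 −1.10 ± 0.21). ALD5, a mitochondrial aldehyde dehydrogenase, fell by 1.32 ± 0.22 on the log2 scale. ADH2, the glucose-repressed alcohol dehydrogenase, was high everywhere and not called, at 5935, 7052 and 7057 in acetate cultures, against 7543 and 4148 on maltose arrays 1 and 3 and 7196 on array 2. Its log2 difference was 0.13 ± 0.28, and ADH1 and ADH2 are close enough in sequence for their probes to share signal.

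Carboxylic acid permeases split. ADY2, the acetate transporter, read 1790, 2328 and 2151 in acetate cultures, against 855 and 794 on maltose arrays 1 and 3 and 853 on array 2, a 2.49-fold rise (log2 1.32 ± 0.18, limma adjusted p = 0.000207). JEN1, the lactate and pyruvate permease, was higher on sugar, at 1083, 1063 and 891 in acetate cultures, against 2441 and 1925 on maltose arrays 1 and 3 and 2482 on array 2. It fell 2.25-fold in acetate cultures (log2 −1.17 ± 0.18, limma adjusted p = 0.000507), so these permeases, both known to be repressed by glucose, changed in opposite directions. The other 3 genes of this list were not called. In pyruvate metabolism 1 of 11 was called higher, a share close to the 8.29% of all probe sets. It was PYC1, a pyruvate carboxylase, at 0.98, which lost that call without acetate array 2, acetate array 3, maltose array 1 or maltose array 2 (adjusted p 0.0758 to 0.125).

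Among 14 activators of genes for non-fermentable carbon use, 4 rose, beside 8.29% of all probe sets, and the other 10 were not called. SIP4, which binds the carbon source response element of gluconeogenic genes, read 313, 234 and 204 in acetate cultures, against 81.2 and 38.3 on maltose arrays 1 and 3 and 37.8 on array 2. The rise was 5.03-fold (log2 2.33 ± 0.31, limma adjusted p = 0.000149) without overlap. ADR1, an activator of alcohol and fatty acid use, was dimmer at 114, 105 and 87.1 in acetate cultures, against 32.9 and 49.1 on maltose arrays 1 and 3 and 16.9 on array 2 (log2 1.75 ± 0.40, limma adjusted p = 0.01). CAT8, the activator that switches on SIP4, overlapped between groups, at 44.2, 54.7 and 46.4 in acetate cultures, against 47.8 and 21.2 on maltose arrays 1 and 3 and 11.7 on array 2. Its difference of 1.07 ± 0.42 was not called (limma adjusted p = 0.0996), and it was called at 1.60 without maltose array 1 (adjusted p = 0.0169). ERT1, a regulator of gluconeogenic genes, and HAP4, the limiting subunit of the respiratory activator, were at 0.98 and 0.60. ERT1 lost its call without acetate array 2 or 3 (adjusted p 0.0852 to 0.0933), and HAP4 lost its call without any 1 acetate array, maltose array 1 or maltose array 3 (adjusted p 0.0535 to 0.153). Of the 14, 1 was called with acetate array 1 alone.

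Of 17 genes for glucose sensing and repression, 1 rose and 3 fell, beside 8.29% and 3.6% of all probe sets. REG2, a regulatory subunit of the Glc7 phosphatase, read 898, 1315 and 1554 in acetate cultures, against 290.0 and 288 on maltose arrays 1 and 3 and 98.8 on array 2. It rose 6.06-fold (log2 2.60 ± 0.33, limma adjusted p = 8.55e-05), and the change was 2.08 without maltose array 2. NRG2, a repressor of glucose-repressed genes, fell, with 210.0, 197 and 215 in acetate cultures, against 608 and 546 on maltose arrays 1 and 3 and 795 on array 2 (log2 −1.63 ± 0.24). MIG2, another such repressor, was near the floor in acetate cultures, at 7.3, 12.3 and 11.0, against 25.4 and 37.1 on maltose arrays 1 and 3 and 39.7 on array 2. MTH1, a corepressor of hexose transporter genes, was the other member called lower, at −1.10, and that call was lost without acetate array 2, acetate array 3, maltose array 1 or maltose array 3 (adjusted p 0.0544 to 0.216).

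Glycolytic genes were lower in acetate cultures or not called. Of 16 genes tested 7 fell, beside 3.6% of all probe sets, and the other 9 were not called, with a median of −0.65. HXK1, a hexokinase that is low on abundant glucose, read 271, 182 and 184 in acetate cultures, against 836 and 936 on maltose arrays 1 and 3 and 1614 on array 2. It fell 5.18-fold (log2 −2.37 ± 0.25, limma adjusted p = 1.05e-05) and by 2.08 on the log2 scale without maltose array 2. HXK2, the hexokinase that also mediates glucose repression, was not called, at 613, 523 and 403 in acetate cultures, against 549 and 774 on maltose arrays 1 and 3 and 822 on array 2. TDH1, a glyceraldehyde-3-phosphate dehydrogenase, read 556, 439 and 416 in acetate cultures, against 1948 and 1625 on maltose arrays 1 and 3 and 1832 on array 2 (log2 −1.94 ± 0.24). ENO1, an enolase that also runs in gluconeogenesis, fell by 1.32 ± 0.21 and GLK1, glucokinase, by 1.21 ± 0.23 on the log2 scale. CDC19, pyruvate kinase, was at −0.93 ± 0.19, PFK2, a phosphofructokinase subunit, at −0.77 ± 0.17, and PGI1, phosphoglucose isomerase, at −0.76. PGI1 lost its call without acetate array 2, acetate array 3 or maltose array 2 (adjusted p 0.0724 to 0.0985). With acetate array 1 alone 2 of the 7 calls were made.

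In the pentose phosphate pathway 7 of 13 genes fell and 1 rose, beside 3.6% and 8.29% of all probe sets. The median was −0.57. GND2, a 6-phosphogluconate dehydrogenase, read 135, 67.0 and 79.3 in acetate cultures, against 259 and 438 on maltose arrays 1 and 3 and 455 on array 2 (log2 −2.06 ± 0.29, limma adjusted p = 0.000234). SOL4, a 6-phosphogluconolactonase, read 310, 167 and 155 in acetate cultures, against 589 and 812 on maltose arrays 1 and 3 and 872 on array 2. In both genes acetate array 1, the acetate array with the low 3′ to 5′ ratio, was the highest acetate array. ZWF1, glucose-6-phosphate dehydrogenase, which opens the pathway, fell by 1.31 ± 0.28 on the log2 scale, SOL3 by 1.08 ± 0.20 and GND1, the main 6-phosphogluconate dehydrogenase, by 0.92 ± 0.17. The exception was RKI1, ribose-5-phosphate isomerase, at 311, 260.2 and 299 in acetate cultures, against 74.7 and 106 on maltose arrays 1 and 3 and 56.4 on array 2. RKI1 rose 3.78-fold (log2 1.92 ± 0.26, limma adjusted p = 0.000137). The transketolase TKL2, at −1.86, lost its call without acetate array 2 or maltose array 2 (adjusted p 0.0588 to 0.0604), and the transaldolase TAL1, at −0.57, without any 1 acetate array or maltose array 1 (adjusted p 0.0796 to 0.135). With acetate array 1 alone RKI1 was the only call of the list.

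Hexose transporters and sensors went in both directions. Of 10 tested 2 were called lower, beside 3.6% of all probe sets, and the other 8 were not called. Changes ran from −1.40 to 0.81, at a median of 0.30, and 3 higher and 3 lower members had an unadjusted limma p under 0.05. HXT2, a glucose-repressed transporter, read 559, 585 and 818 in acetate cultures, against 1289.6 and 1195 on maltose arrays 1 and 3 and 1638 on array 2 (log2 −1.08 ± 0.22, limma adjusted p = 0.00566). HXT8 was at the floor on all acetate arrays, at 5.4, 10.1 and 10.6, against 30.0 and 36.9 on maltose arrays 1 and 3 and 28.9 on array 2, so it was at least 2.65-fold lower. HXT8, too, passed the filter only through the maltose arrays and is 1 of the 2 counted. HXT7, a high-affinity transporter nearly identical to HXT6, was not called, at 1296, 1394 and 1422 in acetate cultures, against 1764 and 1775 on maltose arrays 1 and 3 and 2216 on array 2. SUC2, invertase, overlapped between the groups, at 166, 132 and 148 in acetate cultures, against 123 and 238 on maltose arrays 1 and 3 and 164 on array 2.

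A maltose uptake gene, MAL11, had the deepest fall among called probe sets of 1 gene. Of 7 genes of maltose and isomaltose use with a tested probe set of their own, 4 fell, at a median of −2.75. Of all probe sets 3.6% were called lower. MAL11 read 96.3, 67.0 and 106 in acetate cultures, against 3336 and 2583 on maltose arrays 1 and 3 and 4455 on array 2. It was 38.3-fold lower in acetate cultures (log2 −5.26 ± 0.24, limma adjusted p = 6.97e-10), with −5.06 without maltose array 2. MAL31, a maltose permease, read 125, 103 and 136 in acetate cultures, against 2123 and 1566 on maltose arrays 1 and 3 and 2569 on array 2, a 16.9-fold fall (log2 −4.08 ± 0.24). IMA1, an isomaltase, read 18.8, 25.5 and 29.4 in acetate cultures, against 208 and 169 on maltose arrays 1 and 3 and 122 on array 2, a 6.74-fold fall (log2 −2.75 ± 0.34). In the permeases maltose array 2 was the highest maltose array and in the isomaltase it was the lowest. IMA5 was at the floor in acetate cultures, at 8.3, 2.3 and 8.4, against 160 and 146 on maltose arrays 1 and 3 and 66.5 on array 2, at least 9.65-fold lower. Like CYC7 it passed the filter only through the maltose arrays, so no p is given, and the count of 4 includes it.

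The regulators of these loci did not follow the permeases. MAL33, a MAL activator, was at 205, 152 and 130 in acetate cultures, against 181 and 249 on maltose arrays 1 and 3 and 118 on array 2, which overlaps (log2 −0.13 ± 0.32). MAL13, the activator of the MAL1 locus, at −0.29, and MPH2, an alpha-glucoside permease, at 0.09, were also not called. The maltase genes MAL12 and MAL32 and the isomaltases IMA2, IMA3 and IMA4 have no probe set of 1 gene, and near-identical copies can add to the signals of MAL31 and IMA1. YHR210C, a gene of unknown function, fell as well, at 28.0, 25.1 and 26.3 in acetate cultures, against 267 and 136 on maltose arrays 1 and 3 and 112 on array 2 (log2 −2.59 ± 0.34). Its lowest maltose array was array 2, as in IMA1 and unlike the permeases.

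**Figure D3:**
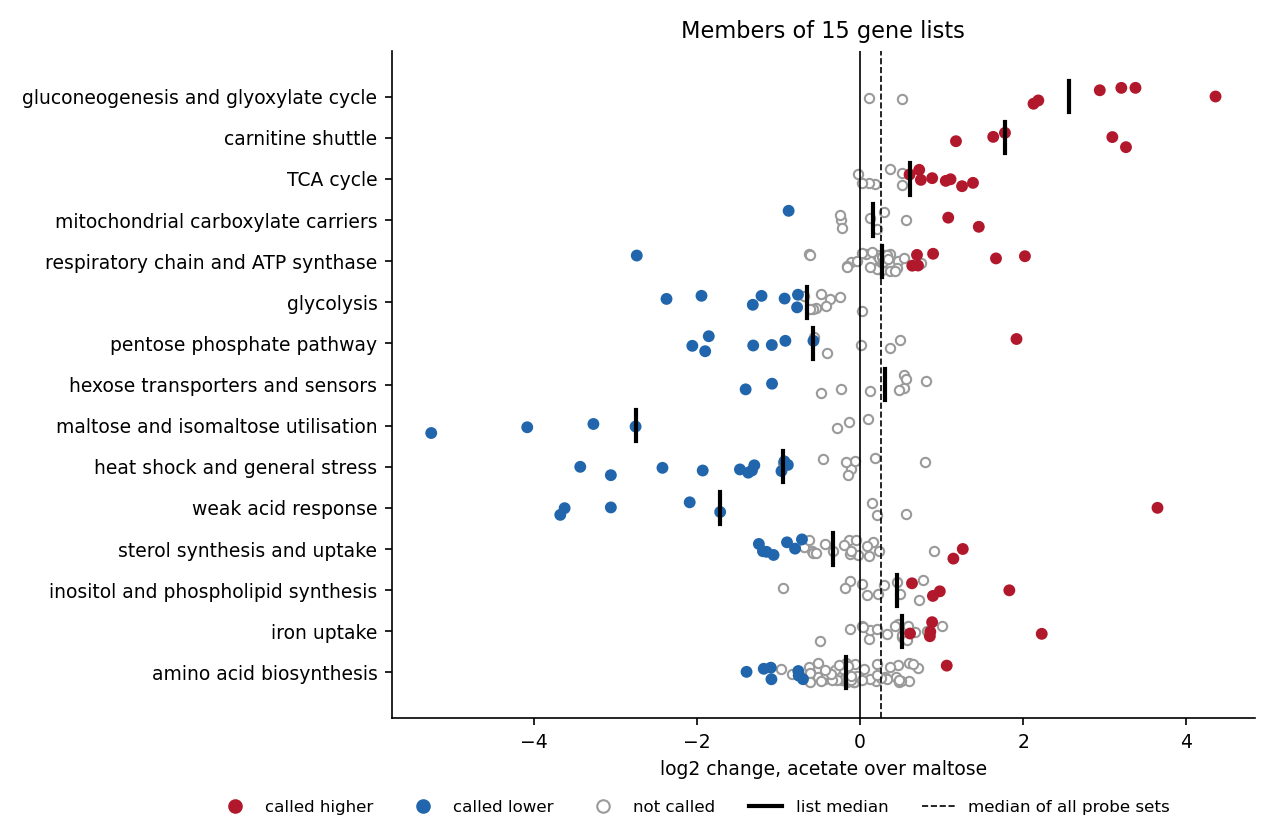
Log2 change, acetate minus maltose, of each tested member of 15 gene lists, with members called higher in red, called lower in blue, not called as open points, and the median of a list as a bar. The gluconeogenesis and glyoxylate list has its median at 2.56, glycolysis at −0.65 and maltose use at −2.75.

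Many stress genes were lower in acetate cultures. Of 19 heat shock and general stress genes 11 fell, beside 3.6% of all probe sets, and the other 8 were not called. The median was −0.94. GRE1, a hydrophilin induced by osmotic stress and drying, read 482, 141 and 216 in acetate cultures, against 2774 and 2003 on maltose arrays 1 and 3 and 3321 on array 2 (log2 −3.43 ± 0.54, limma adjusted p = 0.000637). SPI1, a cell wall protein of stationary phase, read 85.8, 51.8 and 55.3 in acetate cultures, against 502 and 507 on maltose arrays 1 and 3 and 556 on array 2. SPI1 was 8.32-fold lower (log2 −3.06 ± 0.24), with a narrow spread in maltose cultures that took in array 2. The chaperones HSP26, HSP42, SSE2 and SSA4 fell by 1.30 to 1.47 on the log2 scale. HSP26 read 1503, 1060 and 1087 in acetate cultures, against 3521 and 1987 on maltose arrays 1 and 3 and 3896 on array 2. SSA3, an Hsp70, was at −2.42 ± 0.53 and lost its call without maltose array 2 (adjusted p = 0.0655), as did HSP30, HSP12 and HSP104. These 3 also lost their calls without acetate array 3, HSP30 and HSP12 without acetate array 2, and HSP12 without maltose array 1 (adjusted p 0.0512 to 0.136). The count was 7 without maltose array 2 and 1 with acetate array 1 alone, where the median was −0.81.

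Genes known from the response to weak organic acids were mostly lower in cultures that fed on one. Of 9 tested 5 were called lower and 1 higher, beside 3.6% and 8.29% of all probe sets, at a median of −1.72. PDR12, the pump that exports carboxylate anions such as sorbate and benzoate, read 65.8, 29.9 and 33.3 in acetate cultures, against 314 and 814 on maltose arrays 1 and 3 and 480 on array 2. It was 12.3-fold lower (log2 −3.62 ± 0.35, limma adjusted p = 5.03e-06). FDH1, formate dehydrogenase, has 2 probe sets, which both fell and which a near-identical copy can share. The brighter read 303, 75.2 and 50.9 in acetate cultures, against 1523 and 1022 on maltose arrays 1 and 3 and 1559 on array 2, at −3.68 ± 0.44, and the other was at −4.35 ± 0.55. Acetate array 1 stood above the other acetate arrays on both, and with it as the only acetate array the FDH1 changes were −2.15 and −2.42. YGP1, a secreted glycoprotein, fell by 2.09 ± 0.24 and YRO2, a plasma membrane protein, by 1.72 ± 0.33 on the log2 scale. The fifth was SPI1, given above.

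TPO2 was the member that rose. It read 150, 278 and 305 in acetate cultures, against 30.9 and 17.4 on maltose arrays 1 and 3 and 12 on array 2, a 12.5-fold difference (log2 3.65 ± 0.38, limma adjusted p = 1.15e-05) that was 3.33 without maltose array 2. In this gene acetate array 1 was the lowest acetate array, and with it alone the change was 3.01. Among 10 genes of polyamine transport and synthesis TPO2 was the only call, beside 8.29% of all probe sets called higher. That list had 2 higher calls without acetate array 3 and 5 without maltose array 3. The weak acid counts of 1 higher and 5 lower stood without any single array, and with acetate array 1 alone they were 1 and 4.

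In storage carbohydrate metabolism 3 genes fell. Beside the counts of this paragraph, 3.6% of all probe sets tested were called lower. GSY2, glycogen synthase, read 139, 78.6 and 88.8 in acetate cultures, against 262 and 311 on maltose arrays 1 and 3 and 332 on array 2 (log2 −1.60 ± 0.24, limma adjusted p = 0.000411). GPH1, glycogen phosphorylase, which breaks glycogen down, fell as well, by 1.85 ± 0.34 on the log2 scale. These 2 of 10 glycogen genes fell, and TPS2, trehalose-6-phosphate phosphatase, was the 1 of 7 trehalose genes that did, at −1.19. Of 24 antioxidant genes 4 fell, at a median of −0.12. They include the peroxiredoxins TSA2 (−2.00) and AHP1 (−1.37) and the glutathione peroxidase GPX1 (−1.22). The fourth, SOD2, the mitochondrial superoxide dismutase, was at −0.70 and lost its call without any 1 array but maltose array 3 (adjusted p 0.0618 to 0.176).

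Sterol synthesis and uptake had 7 of 27 genes lower and 2 higher, beside 3.6% and 8.29% of all probe sets. The median was −0.34. ERG3, the C-5 sterol desaturase, read 1990, 1599 and 1572 in acetate cultures, against 4187 and 3205 on maltose arrays 1 and 3 and 4923 on array 2 (log2 −1.24 ± 0.23, limma adjusted p = 0.00258). ERG1, squalene epoxidase, at −1.19, and ERG5, the C-22 desaturase, at −1.15, moved with it, and maltose array 2 was the highest maltose array for ERG1 and ERG3. Those 3 kept their calls without any single array. The list's 7 lower calls were 3 without acetate array 2, acetate array 3 or maltose array 2, 4 without maltose array 1, and 11 without maltose array 3. Of the 27, limma called 0 with acetate array 1 alone, at a median of −0.32. The members called higher, the sterol importers AUS1 and PDR11, were at 1.26 and 1.14. Both calls were lost without any 1 acetate array or maltose array 2, and that of PDR11 also without maltose array 1 (adjusted p 0.0521 to 0.162).

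INO1, inositol-3-phosphate synthase, led the phospholipid genes, of which 4 of 15 rose, beside 8.29% of all probe sets. It read 1176, 1094 and 1088 in acetate cultures, against 329 and 373 on maltose arrays 1 and 3 and 254 on array 2 (log2 1.83 ± 0.20, limma adjusted p = 2.26e-05). OPI3, a methyltransferase of phosphatidylcholine synthesis, rose by 0.89 ± 0.20. It read 1285, 1334 and 1223 in acetate cultures, against 725 and 631 on maltose arrays 1 and 3 and 715 on array 2, a tight set on both sides. The other calls were CHO2 (0.98) and CDS1 (0.64), of the same pathways, and the count of 4 was 2 without acetate array 2, acetate array 3 or maltose array 1. CHO2 lost its call in those fits and without maltose array 3, and CDS1 in those fits and without acetate array 1 (adjusted p 0.06 to 0.165). A single gene of the list was called with acetate array 1 alone.

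Iron uptake had 5 of 22 genes higher, beside 8.29% of all probe sets, at a median of 0.52, with 1 gene well above the rest. SIT1, a siderophore transporter, read 615, 369 and 566 in acetate cultures, against 115 and 62.5 on maltose arrays 1 and 3 and 174 on array 2, a 4.68-fold rise (log2 2.23 ± 0.33, limma adjusted p = 0.00039). The other 4 calls, HMX1, ENB1, SMF3 and FTH1, were between 0.61 and 0.88. The count was 1 without acetate array 2 or 3, and 3 without acetate array 1, maltose array 1 or maltose array 2. ENB1 lost its call without any 1 of the 6 arrays (adjusted p 0.0626 to 0.165), HMX1 and SMF3 without acetate array 2 or 3 (0.0581 to 0.109), and FTH1 without any 1 array but maltose array 3 (0.0613 to 0.119). With acetate array 1 alone 1 gene of the list was called.

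Of 65 amino acid biosynthesis genes 7 fell and 1 rose, beside 3.6% and 8.29% of all probe sets. The median was −0.18. ARG1, argininosuccinate synthetase, read 561, 880 and 775 in acetate cultures, against 2009 and 1411 on maltose arrays 1 and 3 and 2441 on array 2 (log2 −1.39 ± 0.24, limma adjusted p = 0.00147). ARO4, the entry enzyme of aromatic amino acid synthesis, fell by 1.18 on the log2 scale, and BAT2, a branched-chain aminotransferase, rose by 1.06 ± 0.23. The 7 lower calls were 2 without acetate array 2 or 3, 4 without maltose array 2 and, with acetate array 1 alone, 1. Of the 7, ARG1 and ARO4 kept their calls without any single array, while HIS1, HIS3, TRP4, HOM2 and CPA1 each lost theirs without 3 or 4 of the 6 arrays (adjusted p 0.0565 to 0.17). GDH3, a glutamate dehydrogenase expressed on non-fermentable carbon, read 1228, 1155 and 994 in acetate cultures, against 234 and 300 on maltose arrays 1 and 3 and 391 on array 2. It was the 1 of 5 ammonium assimilation genes called, at 1.90 ± 0.22 (limma adjusted p = 2.59e-05).

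Genes of the growth machinery had shares of calls at about or under those of all probe sets. Of 81 cytosolic ribosomal protein genes 3 were called lower, beside 3.6% of all probe sets, at a median of −0.15, and 13 had an unadjusted p under 0.05. The count was 2 without acetate array 2, acetate array 3, maltose array 1 or maltose array 2, where RPL13B lost its call, and 16 without maltose array 3. Of 75 mitochondrial ribosomal protein genes 2 were called higher, at a median of 0.25, which is that of all probe sets. These were MRP10 and MRPL6, and the count was 0 without acetate array 2, acetate array 3 or maltose array 1 (adjusted p 0.0612 to 0.104), 1 without maltose array 2 and 12 without maltose array 3. Among 37 ribosome biogenesis genes limma called 0, with 2 at an unadjusted p under 0.05, and the proteasome had 1 higher and 1 lower of 33, RPN2 and RPT1, which both lost their calls without acetate array 2, acetate array 3, maltose array 1 or maltose array 2 (adjusted p 0.0647 to 0.19). Beta-oxidation, the peroxisomal breakdown of fatty acids, also had 0 calls by limma among 15 genes, with 3 at an unadjusted p under 0.05. Peroxisome biogenesis had 1 of 22 higher, PEX21, a peroxisomal import protein, at 442, 360 and 411 in acetate cultures, against 138 and 161 on maltose arrays 1 and 3 and 177 on array 2 (log2 1.35 ± 0.21).

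Markers of other states were measured beside these groups. The summed signal of 6 a-cell genes was 4272, 4307 and 4505 on acetate arrays, against 6041 and 2793 on maltose arrays 1 and 3 and 4763 on array 2, so the groups overlapped. MFA1 and MFA2 made up most of that sum. Of the 6 genes 5 had a positive change, at a median of 0.61, and limma called 0. The summed signal of 4 alpha-cell genes was 193, 199.8 and 219 on acetate arrays, against 172 and 137 on maltose arrays 1 and 3 and 90.5 on array 2. The meiosis list, of which 6 of 16 genes were at or below 12 on all 6 arrays, summed to 363, 331 and 383 on acetate arrays, against 478 and 692 on maltose arrays 1 and 3 and 698 on array 2. That direction came from SPS100, a spore wall gene that is also induced outside meiosis. Without SPS100 the sums were 276, 267 and 314 on acetate arrays, against 173 and 216 on maltose arrays 1 and 3 and 116 on array 2. Of the 7 members tested 5 had a positive change, with a median of 0.47, and SPS4 and ADY3 were called higher. Both lost that call without acetate array 2, acetate array 3, maltose array 1 or maltose array 2 (adjusted p 0.0634 to 0.144), and SPS100, called lower, lost its call without maltose array 2 (0.068). Low-oxygen markers summed to 729, 772 and 952 on acetate arrays, against 832 and 1120 on maltose arrays 1 and 3 and 1362 on array 2. Phosphate limitation markers, of which 1 of 8 was at or below 12 on all 6 arrays, summed to 852, 993 and 1113 on acetate arrays, against 607 and 681 on maltose arrays 1 and 3 and 525 on array 2. The part of these states in the results was not tested.

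Ethanol and glucose cultures share no array with acetate and maltose cultures, and set the same kind of contrast side by side. The same sign of RNA quality moved with this pair, with actin 3′ to 5′ ratios of 3.31, 9.27 and 14.0 on ethanol arrays, against 1.84, 2.60 and 1.96 on glucose arrays, and its part in the shared pattern was not tested. In ethanol minus glucose 179 probe sets were called (2.61%), of those that passed the filter on acetate and maltose arrays. Of the 569 probe sets higher in acetate cultures, 95.3% had the same sign there and 80 were called the same way, and of the 247 lower, 89.1% had the same sign and 41 were called the same way. Over all probe sets tested 66.4% had the same sign. The calls of acetate against maltose were larger in size, with medians of 1.17 and −1.23, against 0.59 and −0.54 in ethanol against glucose, though they were chosen in the acetate contrast. Over all 6867 probe sets Pearson's r between the contrasts was 0.62, across probe sets that are not independent.

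For some leading genes the values were close. PCK1 was at 4.36 in acetate minus maltose and 4.15 in ethanol minus glucose, FBP1 at 3.38 and 3.31, MLS1 at 3.20 and 3.15, and YAT1 at 3.26 and 3.21. TPO2 was further apart, at 3.65 and 2.22, though that difference was not called (limma adjusted p = 0.599). All 6 gluconeogenesis and glyoxylate genes called with acetate were also called higher in ethanol minus glucose, at a list median of 2.44. PDR12 was at −3.62 and −3.81 and HXK1 at −2.37 and −2.66. The heat shock list, with a median of −0.94 in acetate minus maltose, was at −0.45 in ethanol minus glucose with 1 gene called lower and 1, the Hsp70 gene SSA1, called higher there, and the TCA list, at 0.61, was at 0.55. No difference in those lists between the contrasts was tested.

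**Figure D4:**
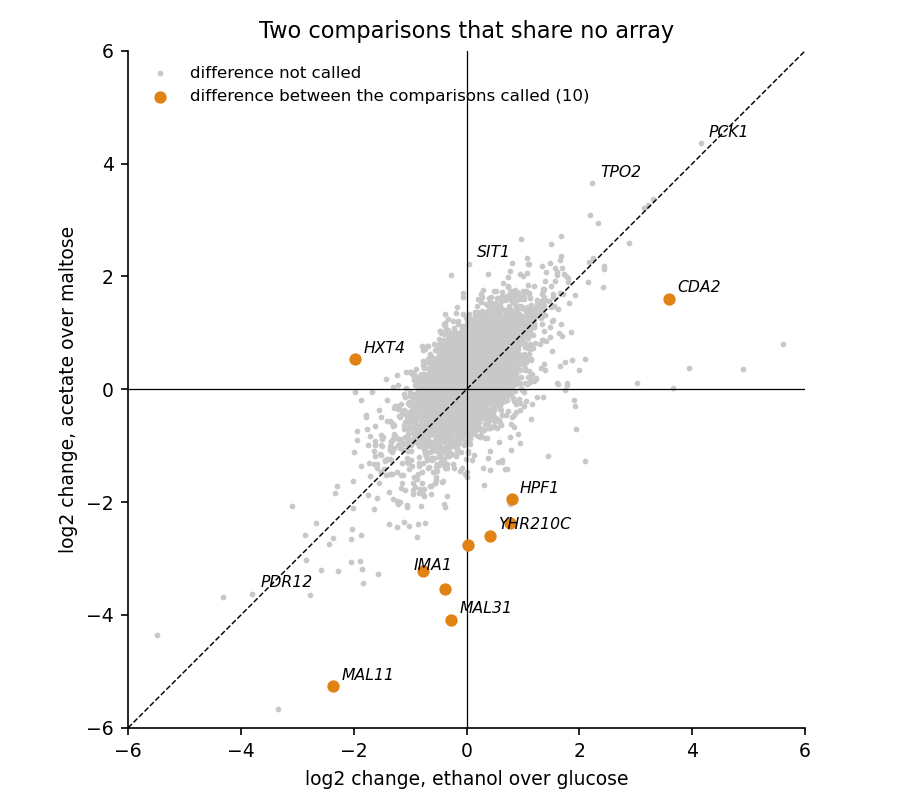
Log2 change in acetate minus maltose (vertical axis) against log2 change in ethanol minus glucose (horizontal axis) for the 6867 probe sets tested, with the dashed diagonal marking equal change. The 10 probe sets whose changes differ by limma are orange, among them MAL11 at −5.26 and −2.37.

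The difference between the contrasts was called for 10 probe sets (0.146%), and 527 had an unadjusted p under 0.05. Those of 1 gene were MAL31, MAL11, IMA1, YHR210C, HPF1, HXT4 and CDA2. MAL31 changed by −4.08 with acetate against maltose and by −0.28 with ethanol against glucose, a difference of −3.81 ± 0.35 (limma adjusted p = 2.78e-05). MAL11 also fell in ethanol against glucose, by 2.37 on the log2 scale. Its signals were 112, 101 and 76.1 in ethanol cultures, against 510.1, 401 and 572 in glucose cultures, so glucose cultures lay above ethanol cultures without overlap, and below every maltose culture. Both calls stood with any 1 acetate or maltose array left out. The others did not: YHR210C missed without acetate array 2 (adjusted p = 0.0544), IMA1 without acetate array 1, acetate array 2 or maltose array 1 (0.0695 to 0.0821), HXT4 without any 1 acetate array or maltose array 1 (0.0566 to 0.111), and HPF1 without any 1 array but maltose array 3 (0.0764 to 0.25). CDA2 passed the filter only through the acetate arrays and was not tested without any 1 of them.

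The filter on low values looked only at acetate and maltose arrays, so probe sets above 12 in ethanol cultures alone were not tested. Set directly against each other, acetate and ethanol cultures differed in 2 of the probe sets tested (0.0291%). SIT1 was the higher one, at 615, 369 and 566 in acetate cultures, against 79.7, 103 and 82.3 in ethanol cultures (log2 2.52, limma adjusted p = 0.00275). It missed the threshold without acetate array 1 or 3 (adjusted p 0.0612 to 0.0668), and its change in ethanol minus glucose was 0.03. The lower one was a probe set of CDA2, a chitin deacetylase, chosen here after its values were seen. It read 38.5, 33.7 and 37.5 in acetate cultures, against 163, 154 and 131 in ethanol cultures, a difference of −2.03, and could not be tested without any 1 acetate array. A second CDA2 probe set was not called, at 0.64.

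Maltose and glucose cultures differed in 14 of the probe sets tested (0.204%). Probe sets above 12 in glucose cultures alone were likewise not tested. MAL31 was at 3.61, IMA1 at 3.42, YHR210C at 2.81, MAL11 at 2.79, IMA5 at 1.71 and HXT8 at 1.18 in maltose minus glucose. SUC2, on 2 probe sets at −1.64 and −1.85, and HXT4, at −1.98, were lower in maltose cultures. INO1 and OPI3, at −1.10 and −1.08, were lower as well, and these are genes that rose in acetate against maltose. Those calls of INO1 and OPI3 were lost without acetate array 2, maltose array 1 or maltose array 2 (adjusted p 0.0514 to 0.209), where INO1 was at −0.95 to −1.13. IMA5 and HXT8, which are counted among the 14, passed the filter on low values only through the maltose arrays, where they are high. No p is given for them, and without any 1 maltose array they were not tested. IMA5 lost its call without any 1 acetate array and HXT8 without acetate array 2 or 3. The call of 1 SUC2 probe set was lost without maltose array 1 or 2 (adjusted p 0.171 to 0.176). In ethanol minus glucose INO1 was at 0.73 and OPI3 at −0.09, neither of them called. The glucose arrays come from other records, so record and sugar cannot be told apart in these values.

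**Figure D5:**
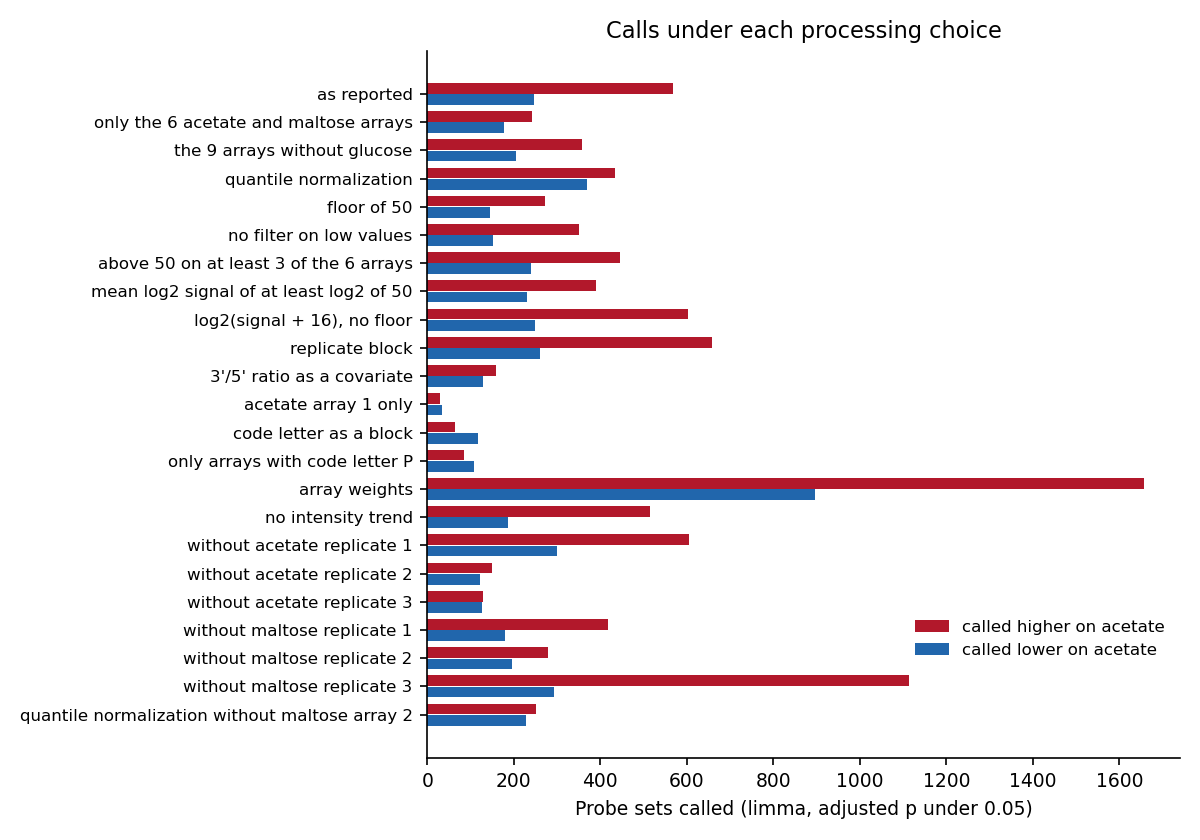
Number of probe sets called higher in acetate cultures (red horizontal bars) and lower (blue horizontal bars) under each way of processing the data. The reported setting has 569 and 247, leaving out maltose array 2 gives 280 and 196, and acetate array 1 alone gives 30 and 33.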

How the data were processed

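Per the submitters' processing notes, MAS5 made the signals of the acetate, maltose and ethanol arrays. For the glucose arrays no source used here names the software. The deposited values are linear intensity values that the authors scaled, since all arrays have the same 2% trimmed mean. Probe sets were named by the platform annotation and a RefSeq gene table: 6504 had 1 gene, 328 several and 2443 none. After rescaling, signals under 12 were set to 12 and log2 was taken. Probe sets with 3 of the 6 arrays above that floor were fitted with limma 3.58.1 in R 4.3.3 on all 12 arrays, 1 mean per source, with an intensity trend and Benjamini-Hochberg adjustment over 6867 probe sets. The script was tested on simulated data. The brightest single-gene probe set stands for a gene in the lists. For a gene whose arrays of 1 group are all at the floor, folds are lower bounds.

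Genes were named if among the 15 highest or lowest called probe sets of 1 gene without overlap, up to 4 called members of a list, up to 5 of the largest differences between contrasts a direction, or on a fixed set of carbon genes; some are only counted. Members, lists and tests were chosen with earlier results of these data known. Replicate numbers did not pair acetate with maltose arrays, with correlations of −0.115, −0.060 and −0.205. Pairing by number between acetate and ethanol arrays was not tested, and the reported fit takes none. Their actin 3′ to 5′ ratios rose in the same order, at 2.78, 10.2 and 13.1 on acetate and 3.31, 9.27 and 14.0 on ethanol arrays. No sequence or genome was used. Precision is limited by the number of arrays and their signal over background, as no read depth exists.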

Additional observations from a re-analysis of the deposited data

Results flagged for a closer look

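The change in acetate minus maltose differed from that in ethanol minus glucose, by an interaction term in limma, for 7 probe sets of 1 gene. MAL31 had a difference of −3.81 ± 0.35 (limma adjusted p = 2.78e-05). MAL11 had −2.89 ± 0.35 (limma adjusted p = 0.000707), with −5.26 in acetate minus maltose and −2.37 in ethanol minus glucose. IMA1, an isomaltase, had −2.78 ± 0.48, and YHR210C had −3.01 ± 0.47, both with no call in ethanol minus glucose. YHR210C missed the threshold without acetate array 2 (adjusted p = 0.0544) and IMA1 without acetate array 1, acetate array 2 or maltose array 1. HPF1, a cell wall mannoprotein, had −2.74 ± 0.51 (limma adjusted p = 0.0391) and missed the threshold without any 1 array but maltose array 3. It read 547, 550.2 and 596 in acetate cultures, against 2623 and 1209 on maltose arrays 1 and 3 and 3229 on array 2.

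HXT4, a glucose transporter, had a difference of 2.52 ± 0.45 (limma adjusted p = 0.0329). It was not called in acetate minus maltose, at 21.1, 23.9 and 32.1 in acetate cultures, against 21.9 and 20.2 on maltose arrays 1 and 3 and 6.8 on array 2, while it fell by 1.98 on the log2 scale in ethanol minus glucose. CDA2 had −1.98 ± 0.38, with 1.61 in acetate minus maltose and 3.59 in ethanol minus glucose. All its maltose arrays were at the floor, so it passed the filter on low values only through the acetate arrays and its change there is bounded by the floor. No p is given for that reason.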

How the results depend on the processing

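Of 125 named probe sets under 22 alternatives, 2232 of 2691 values kept direction and side of the threshold, 439 fell short of it, 11 newly passed and 9 turned sign. The turned ones were uncalled: ADH2 (0.13) at −0.02 with quantile normalization, −0.19 with the 3′ to 5′ covariate, −0.04 with acetate array 1 only, −0.01 with array weights, −0.15 without maltose array 3 and −0.18 with quantile normalization without maltose array 2, and SUC2 (−0.19) at 0.16, 0.03 and 0.06 with the covariate, array weights and without maltose array 3 (0.29 for ADH2 and −0.42 for SUC2 were the other ends with 1 array left out). The 816 calls were 419 on the 6 arrays alone, 417 with a floor of 50, 503 with no filter, 286 with the covariate, 63 with acetate array 1 only, 182 in a fit blocked by code letter (35.7% of them higher, against 69.7% of the 816), 193 on P arrays only (44.6% higher), 2553 with array weights and 479 with quantile normalization without maltose array 2, the last chosen after seeing the data. Leaving out 1 array gave 255 to 1408. The 10 differences between contrasts were 5 with no filter, 4 with acetate array 1 only, 402 with array weights and 3 to 17 with 1 array left out. The 2 acetate against ethanol calls were 5 with a floor of 50, 1 with a filter at 50 by arrays or by mean, 0 with acetate array 1 only, 465 with array weights and 0 to 4 with 1 array left out. The 14 maltose against glucose calls were 23 with the code block, 29 on P arrays, 445 with array weights and 9 to 151 with 1 array left out. With the replicate block 920 probe sets were called, though the numbers share no culture. IMA5, CYC7 and HXT8 have no value without maltose array 2. The cause of these changes was not tested, beyond fewer arrays or probe sets where a setting removes them.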

Other observations

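Of the 816 calls, 225 (27.6%) were made again without any single one of the 6 arrays, and 50 (6.13%), of which 27 were higher and 23 lower, under all 22 alternatives. The 50 hold genes that the lists do not, and those given here were chosen after their values were seen. ICL2, a mitochondrial lyase of the methylcitrate pathway, read 1157, 1255 and 1249 in acetate cultures, against 395 and 587 on maltose arrays 1 and 3 and 367 on array 2 (log2 1.47). YGR067C, an uncharacterised zinc finger gene, read 884, 723 and 764 in acetate cultures, against 171 and 260 on maltose arrays 1 and 3 and 158 on array 2 (log2 2.04). ECM13, of unknown function, was at 1605, 1489 and 1760 in acetate cultures, against 491 and 617 on maltose arrays 1 and 3 and 537 on array 2. All acetate arrays were above all maltose arrays for these 3 genes.

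Among the falls that held, BDH1, butanediol dehydrogenase, read 207, 192 and 191 in acetate cultures, against 616 and 554 on maltose arrays 1 and 3 and 551 on array 2 (log2 −1.54). BAP2, a permease of branched-chain amino acids, read 76.6, 58.4 and 77.8 in acetate cultures, against 313 and 429 on maltose arrays 1 and 3 and 446 on array 2 (log2 −2.48). SIP18, a gene induced by osmotic stress, read 331, 170 and 226 in acetate cultures, against 1583 and 1294 on maltose arrays 1 and 3 and 1550 on array 2 (log2 −2.65). In these 3 genes maltose array 2 lay near the other maltose arrays.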
